A study of Homo sapiens and Mus musculus with 15 samples.

Results

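The genes described here are 43 named parts and helpers of the 26S proteasome, measured by RNA sequencing in myeloma cell lines that had become resistant to proteasome inhibitors and in the lines they came from. They were taken by name from a list of non-catalytic subunits, assembly factors and regulators. All 43 were found among the 23329 genes listed in the mouse files and the 23346 listed in the human files, and all 43 passed the filter on low counts in both species. Of the list, 7 genes encode the alpha ring of the 20S core and 4 its structural beta subunits. Another 6 encode the ATPases of the base of the 19S cap, 4 the other base subunits and 9 the lid. The list closes with 5 assembly factors of the core, 3 of the cap and 5 regulators or deubiquitinases. SHFM1 is the name the files use for the lid subunit that RefSeq calls SEM1, and human-style symbols are used below for both species.

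The proteasome degrades proteins that carry ubiquitin chains. Its core is a stack of alpha and beta rings whose catalytic sites face an inner chamber, and its cap binds, deubiquitinates, unfolds and threads substrates into that chamber. Plasma cells and their malignant counterparts, myeloma cells, secrete large amounts of antibody and are known to depend on this disposal route, and bortezomib and carfilzomib block its catalytic beta subunits. When proteasomes are inhibited, the transcription factor NRF1 is known to raise the subunit genes together.

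The study held 15 libraries in 5 groups of 3. Bortezomib-resistant 5TGM1 cells (5TGM1 BR) were kept in 20 nM bortezomib and set against drug-naive 5TGM1, a mouse myeloma line from tumours passaged in C57Bl/KaLwRij mice. RPMI-8226, a human myeloma line called 8226 here, gave a bortezomib-resistant line kept in 10 nM bortezomib (8226 BR), a carfilzomib-resistant line kept in 10 nM carfilzomib (8226 CR) and drug-naive cells. Resistant lines were raised over months of rising drug and spent 5 days without drug before RNA was taken, so no group was measured in the presence of an inhibitor. Each resistant group is 1 derived line, so changes that came with its derivation cannot be told apart from resistance. The labels do not say whether replicates were separate cultures, so a p-value here speaks only of how far these libraries scatter, and that scatter may be technical.

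The mouse libraries held 49097494 to 72288680 gene reads each, and the human ones 31709636 to 58419576. Of 10 plasma cell markers, 9 were found in the mouse files, where 7 exceeded 1 CPM (a read count scaled to the library's total and its TMM factor), and 10 in the human files, where 9 or 10 did so in each group. Their summed level was 5059 to 5149.9 CPM in 5TGM1 BR and 4054 to 4257 CPM in naive 5TGM1, and 1739 to 1778 CPM in 8226 BR, 1573 to 1634 CPM in CR and 2439 to 2626 CPM in naive 8226. Among markers of other cell types, ITGAM averaged 158 CPM in 8226 CR, 9.51 CPM in 8226 BR and 5.21 CPM in naive 8226. The other 4 monocyte or macrophage markers were below 1 CPM in all 3 groups. The summed epithelial markers, chiefly EPCAM and KRT18, lay between 229 and 354 CPM in every library. Summed fibroblast, T cell, endothelial and erythroid markers stayed below 10 CPM in each library, and of the endothelial genes KDR was at 0 in both 5TGM1 groups and CDH5 in all 8226 groups. The part of these genes in the results below was not tested.

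To show what the upstream sequence of such genes looks like, the 250 bases before the start of 4 human members are printed from the RefSeq promoter table (GRCh38.p14, minus strand for each, read 5′ to 3′). They lie at chr1:35641527-35641776, chr3:64023495-64023744, chr9:120842923-120843172 and chr21:39183452-39183701. PSMB2 and PSMD6 had the largest rise and fall in 8226 BR, and PSMD5 and PSMG1 fell in 8226 BR while they rose in 5TGM1 BR. Capitals mark TGACNNNGC on either strand, the core letters of the antioxidant response element, which NRF1 and NRF2 are known to bind with small MAF proteins.
PSMB2: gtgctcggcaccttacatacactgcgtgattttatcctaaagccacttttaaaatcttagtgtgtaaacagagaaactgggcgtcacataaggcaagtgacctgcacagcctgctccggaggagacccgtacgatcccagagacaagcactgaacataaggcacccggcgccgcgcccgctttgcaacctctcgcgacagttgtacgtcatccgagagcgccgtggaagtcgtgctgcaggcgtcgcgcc
PSMD6: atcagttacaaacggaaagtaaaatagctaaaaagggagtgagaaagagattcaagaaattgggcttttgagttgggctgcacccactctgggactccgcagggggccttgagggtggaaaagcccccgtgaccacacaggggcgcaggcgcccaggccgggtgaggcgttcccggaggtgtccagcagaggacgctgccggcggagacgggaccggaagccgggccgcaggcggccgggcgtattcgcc
PSMD5: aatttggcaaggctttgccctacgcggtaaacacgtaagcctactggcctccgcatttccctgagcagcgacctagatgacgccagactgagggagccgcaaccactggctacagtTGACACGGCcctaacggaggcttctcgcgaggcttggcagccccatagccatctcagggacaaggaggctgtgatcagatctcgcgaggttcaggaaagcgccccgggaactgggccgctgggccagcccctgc
PSMG1: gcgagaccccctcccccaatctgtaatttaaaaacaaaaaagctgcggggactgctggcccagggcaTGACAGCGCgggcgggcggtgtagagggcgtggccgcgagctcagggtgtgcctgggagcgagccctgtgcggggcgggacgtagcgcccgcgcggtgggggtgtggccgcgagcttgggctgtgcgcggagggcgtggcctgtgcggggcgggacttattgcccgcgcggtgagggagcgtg
In these windows the letters were found in PSMD5, 134 bases before the start, and in PSMG1, 183 bases before it, and not in PSMB2 or PSMD6. This holds for the RefSeq starts, which for PSMG1 and PSMB2 lay 400 and 318 bases from the start of the principal GENCODE 29 transcript. The table's windows covered 39 members, all but PSMA7, PSMB1, PSMD4 and PSMG3. The windows of SHFM1 and PSMG2 began more than 1000 bases from the start of the gene's principal transcript in GENCODE 29 and were set aside. Among the windows kept, the largest such distance was 532 bases, for PSMD2. Of the 37 windows left, 10 held the letters (27.0%), compared with 3001 of 27305 promoters in the whole table (11.0%). Promoters of the whole table were not screened by this distance, so the shares are not like for like. The windows set aside, of SHFM1 and PSMG2, also held the letters. None of the 6 alpha ring windows and none of the 6 ATPase windows did. The 10 among the 37 were those of PSMB3, ADRM1, PSMD3, PSMD12, PSMG1, PSMD5, PSMD9, UCHL5, USP14 and PSME4. Like PSMD5 and PSMG1, PSMC5, PSMD12 and PSMG4 were called higher in 5TGM1 BR and lower in 8226 BR. Of these last 3, PSMD12 held the letters, and PSMC5 and PSMG4 did not. Members with the letters had a median log2 fold change of 0.023 in 8226 BR against naive cells, and the 27 without them one of 0.33. Against naive cells, 8226 CR gave -0.063 for members with the letters and -0.052 for those without. A match is a description of letters and not of a bound site.

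Reads on the 43 genes made up 1.02% ± 0.0123 of gene reads in 5TGM1 BR and 0.934% ± 0.0172 in naive 5TGM1. Fewer cells that express a gene and less of its RNA per cell cannot be told apart in such bulk samples. In 8226 the genes made up 1.10% ± 0.0157 in BR, 0.871% ± 0.0207 in CR and 0.828% ± 0.0223 in naive cells (SD, n = 3 each). No resistant library overlapped a naive library of its line in this share. The differences from naive cells were 0.0815 percentage points in 5TGM1 BR, 0.276 in 8226 BR and 0.0424 in 8226 CR, and 8226 CR minus BR gave -0.233. These are shares of raw gene reads. With each total scaled by its TMM factor, as in the tests below, an alternative chosen after the data were seen, the shares were 1.03% in BR, 0.883% in CR and 0.877% in naive 8226, and CR libraries (0.870% to 0.906%) overlapped naive ones (0.847% to 0.907%). Among roles, the structural beta subunits had the largest gain in 8226 BR over naive cells, with 0.181% against 0.106% of gene reads, followed by the alpha ring with 0.198% against 0.131%. Core assembly factors, at 0.0509% in BR and 0.0529% in naive cells, and regulators, at 0.144% and 0.147%, were not higher in BR once totals were scaled. On either scale, of the 8 roles, the base non-ATPases and structural beta subunits were the ones whose CR libraries all lay above the naive ones, with 0.172% against 0.125% and 0.124% against 0.106%.

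**Figure D1:**
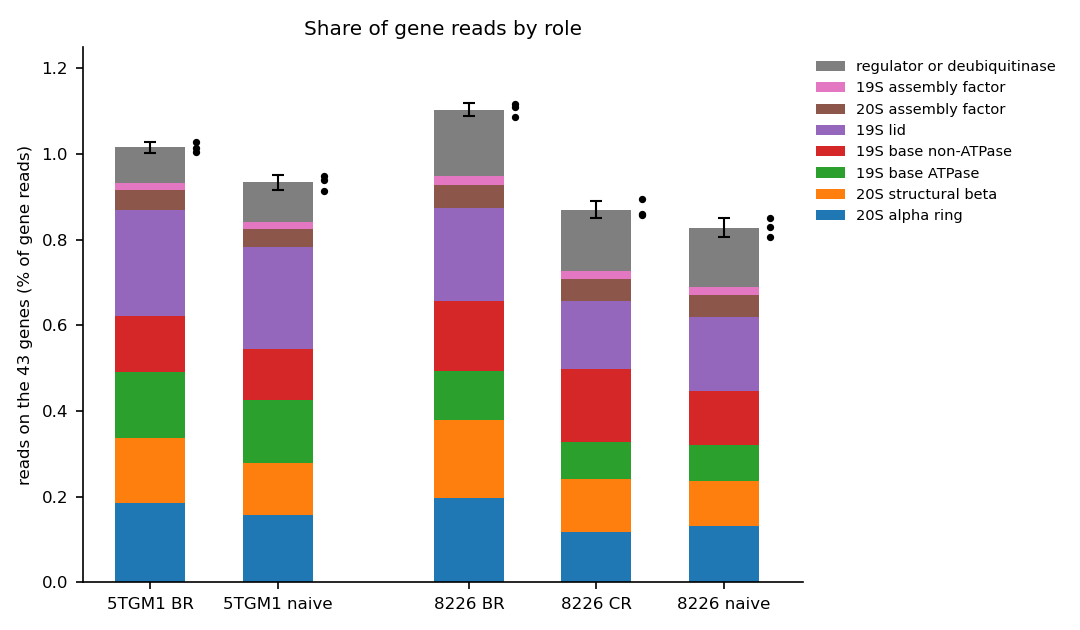
Reads on the 43 genes as a percentage of all gene reads (vertical axis) in each group, stacked by role, with the SD of the total as a bar and the 3 libraries as points. The 8226 BR total of 1.10% is the highest, and the naive 8226 total of 0.828% the lowest.

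In bortezomib-resistant 5TGM1, the 11 structural core genes rose together by small amounts, and the largest changes among the 43 were falls of 2 cap subunits. Of the 43 members, 24 were called higher (55.8%) and 4 lower (9.30%), where a call is an adjusted p below 0.05 by edgeR's quasi-likelihood test over all genes. Among all 11974 genes tested, 34.0% were called higher and 33.2% lower. All 11 structural core genes were called higher, with a median log2 fold change of 0.25 and a largest of 0.50 (PSMB1). None of the 43 rose by 1.5-fold or more, against 9.16% of all genes, and 2 fell by that much, PSMD6 and PSMC6, against 11.0% of all genes. The median over members was 0.15 and that over all genes 0.0045.

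In bortezomib-resistant 8226, 10 of 11 structural core genes and 4 of 6 ATPases were called higher, while assembly factors moved in both directions. PSMA2 was not called, and the ATPases PSMC5 and PSMC6 were called lower. The test called 26 members higher (60.5%) and 11 lower (25.6%), and 38.2% and 41.6% of all 13910 genes. At least 1.5-fold were 6 rises (PSMB2, PSMA7, POMP, PSMC1, PSMC4 and PSMA1) and 2 falls (PSMD6 and PSMD5), against 22.5% and 26.7% of all genes. The median log2 fold change was 0.25 over members, 0.50 over the 11 structural core genes and -0.026 over all genes. Scaling by library size alone moved the median of all genes by 0.18 in this comparison, and the calls became 31 higher and 6 lower, against 6665 and 4681 of all genes. PSME3 then stood at 0.012, with no call and the other sign.

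Carfilzomib-resistant 8226 differed in direction by role. Here 9 members were called higher (20.9%) and 15 lower (34.9%), against 35.0% and 36.7% of all genes. None of the 43 rose by 1.5-fold, where 17.4% of all genes did, and SHFM1 alone fell by that much, where 19.6% did. All 4 base non-ATPase genes were called higher, with log2 fold changes of 0.26 to 0.47, and 5 of 7 alpha ring genes were called lower, with the other 2 not called. Of those 5 calls, 4 (PSMA1, PSMA3, PSMA6 and PSMA7) were lost with library size alone. The members' median was -0.062 and that of all genes -0.0036. With library size alone 12 were called higher and 11 lower, against 5462 and 4589 of all genes. The members' median was then 0.00059, so its sign depends on the scaling.

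**Figure D2:**
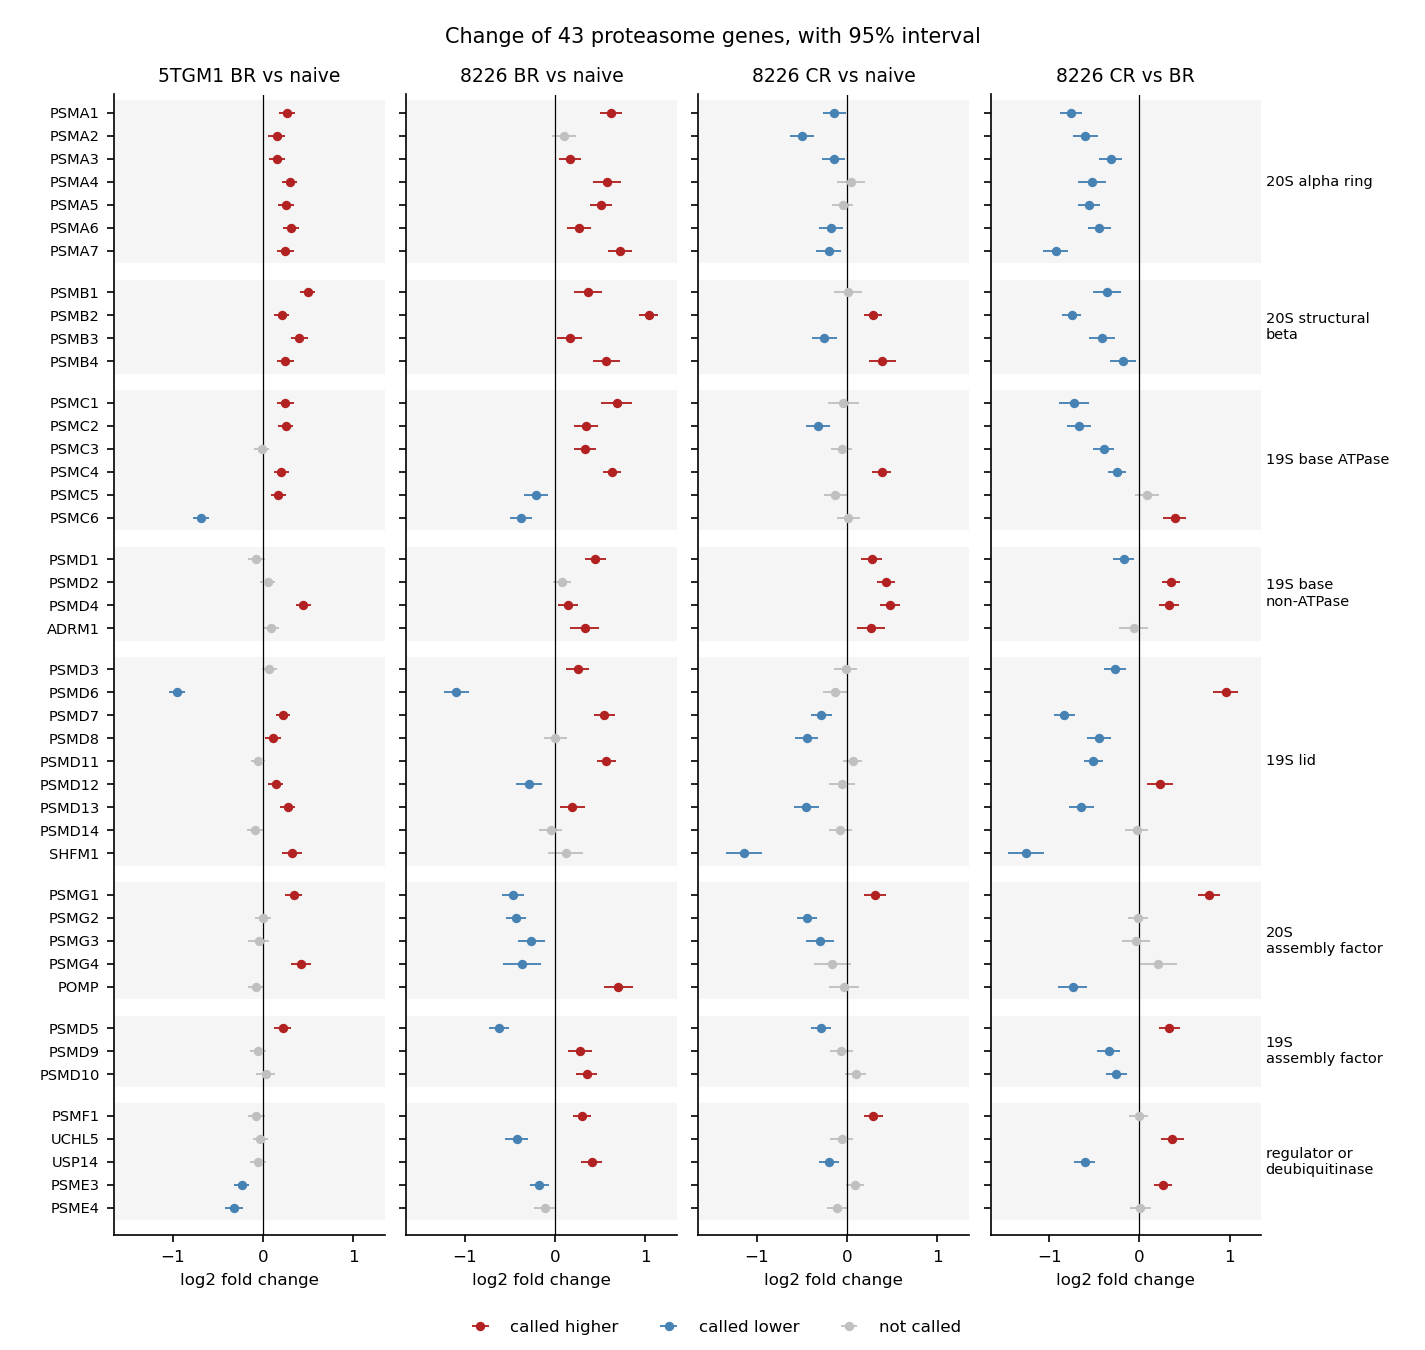
Log2 fold change of each of the 43 genes (rows, grouped by role) in 4 comparisons, with its 95% interval; red and blue mark genes called higher and lower and grey those not called. The 11 structural core genes lie right of 0 in both BR panels and left of 0 in the panel of 8226 CR against BR, and PSMD6 and SHFM1 lie farthest left.

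Set directly against each other, 8226 CR was lower than 8226 BR in most members. The test called 9 higher (20.9%) and 26 lower (60.5%) in CR, against 39.9% and 37.0% of all genes. At least 1.5-fold higher in CR were PSMD6 and PSMG1, and 11 members were lower by that much, against 23.5% and 21.7% of all genes. All 11 structural core genes were called lower in CR, with a median of -0.53, while the 43 had a median of -0.27 and all genes one of 0.020. Of these core calls, that of PSMB4 was lost without BR replicate 3, CR replicate 1 or CR replicate 3. For 8 members no difference was called, though with library size alone 5 of them (ADRM1, PSMD14, PSMG2, PSMG3 and PSMF1) were called lower in CR, and PSMG4 was called higher in CR without the filter on low counts, in a fit of those 2 groups and without CR replicate 3. The narrowest 95% intervals among them ran from -0.11 to 0.094 for PSMF1 and -0.13 to 0.096 for PSMG2, and the widest from -0.0088 to 0.41 for PSMG4. Both 8226 comparisons with naive cells use the same 3 naive libraries, so their values stand side by side without a measure of agreement.

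Among alpha ring genes, which form the gated outer rings of the core, PSMA7 had the largest change in 8226 BR. It was measured at 324, 311 and 329 CPM in 8226 BR, 165, 171 and 169.96 CPM in CR and 181, 186 and 217 CPM in naive cells. All BR libraries lay above and all CR libraries below every naive one. The log2 fold change was 0.72 ± 0.064 in BR (adjusted p = 4.34e-08, edgeR) and -0.21 ± 0.064 in CR (adjusted p = 0.00919); the second lost its call with library size alone and without either naive replicate 3 or CR replicate 1. In mouse cells PSMA7 had 452, 474 and 462 CPM in 5TGM1 BR and 398, 368 and 402 CPM in naive 5TGM1, again without overlap (0.25 ± 0.043). PSMA2 fell most of the ring in CR, with 243, 269.7 and 239.9 CPM in CR, 392, 363 and 386 CPM in BR and 326, 378 and 361 CPM in naive cells. Its change in CR was -0.50 ± 0.064 (adjusted p = 4.24e-06), and in BR it was 0.099 and not called, with an interval of -0.037 to 0.24; it was called higher with library size alone (0.29) and without naive replicate 2. The 5 remaining ring genes were called higher in both BR lines, by 0.17 (PSMA3) to 0.62 (PSMA1) in 8226 and by 0.16 (PSMA3) to 0.31 (PSMA6) in 5TGM1. In CR, PSMA1, PSMA3 and PSMA6 were called lower although some of their CR libraries overlapped naive ones, and these 3 calls were lost with library size alone.

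PSMB2, a structural subunit of the beta ring, rose most of all members in 8226 BR. Its level was 573, 558 and 565 CPM in BR, 329.5, 348 and 330.3 CPM in CR and 268, 276 and 282 CPM in naive cells. The 3 groups did not overlap, and the BR level lay 2.05-fold above that of naive cells. The log2 fold change was 1.04 ± 0.048 in BR (adjusted p = 1.75e-11, edgeR) and 0.29 ± 0.048 in CR (adjusted p = 6.74e-05). In 5TGM1 the change was smaller, 0.21 ± 0.039, with 318, 313 and 313 CPM in BR and 276, 264 and 278 CPM in naive cells, which did not overlap.

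PSMB4 rose in all 3 resistant lines and was the structural beta gene with the largest rise in CR. It was counted at 504, 491 and 556 CPM in 8226 BR, 437, 485 and 446 CPM in CR and 340.2, 322 and 384 CPM in naive cells, so that both resistant groups lay above all naive libraries. Changes were 0.57 ± 0.070 in BR, 0.39 ± 0.070 in CR (adjusted p = 0.000140, edgeR) and 0.25 ± 0.044 in 5TGM1 BR. PSMB1 had the largest rise of any member in 5TGM1 BR, where it reached 466, 467 and 462 CPM, against 337, 315 and 337 CPM in naive 5TGM1 (0.50 ± 0.040, adjusted p = 1.48e-08). In 8226 CR it was not called, at 0.0083 with an interval of -0.15 to 0.16. PSMB3 was higher in both BR lines (0.40 in 5TGM1 and 0.16 in 8226, where libraries overlapped and DESeq2 made no call) and lower in CR (-0.25).

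The 6 ATPases of the base, PSMC1 to PSMC6, form the ring that unfolds substrates, and PSMC6 fell in both BR lines. In 5TGM1 it had 191, 197 and 199 CPM in BR cells and 333, 305 and 305 CPM in naive cells, with no overlap. In 8226 it had 61.3, 58.6 and 58.0 CPM in BR, 74.7, 78.2 and 80.3 CPM in CR and 71.5, 80.9 and 78.5 CPM in naive cells. BR libraries lay below the rest in both lines, and CR libraries overlapped the naive ones. The log2 fold change was -0.68 ± 0.044 in 5TGM1 BR (adjusted p = 7.60e-10, edgeR), -0.38 ± 0.058 in 8226 BR (adjusted p = 2.45e-05) and 0.014 in CR, with an interval of -0.11 to 0.14. PSMC4 was the ATPase gene called higher in all 3 resistant lines, by 0.20 in 5TGM1 BR, 0.63 in 8226 BR and 0.38 in CR. PSMC1 rose by 0.68 in 8226 BR and 0.25 in 5TGM1 BR, and PSMC2 by 0.34 and 0.25. PSMC5 rose by 0.17 in 5TGM1 BR and fell by 0.21 on the log2 scale in 8226 BR; the fall was not called with library size alone.

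The base non-ATPases hold the cap's scaffold and ubiquitin receptors: PSMD1 and PSMD2 are the large scaffolds, and PSMD4 and ADRM1 bind ubiquitin chains. PSMD2 had 854, 862 and 891 CPM in 8226 CR, 681, 670.05 and 694 CPM in BR and 640.1, 637 and 657 CPM in naive cells. Every CR library exceeded every BR and naive library. Against naive cells the change was 0.43 ± 0.047 in CR (adjusted p = 7.17e-07, edgeR) and 0.080 in BR, which was not called and had an interval of -0.020 to 0.18; with library size alone (0.27) and with upper-quartile factors it was called higher. PSMD4 was measured at 414, 445 and 414 CPM in CR, 347, 320.2 and 346 CPM in BR and 304, 308 and 307 CPM in naive 8226, and at 407, 418 and 397 CPM in 5TGM1 BR and 302, 287 and 307 CPM in naive 5TGM1. It rose in all 3 resistant lines: 0.45 ± 0.041 in 5TGM1 BR, 0.14 ± 0.052 in 8226 BR and 0.47 ± 0.052 in CR. The 8226 BR call (adjusted p = 0.0211) was lost with DESeq2's size factors, in a fit of those 2 groups alone, and without naive replicate 1, BR replicate 1 or BR replicate 3.

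**Figure D3:**
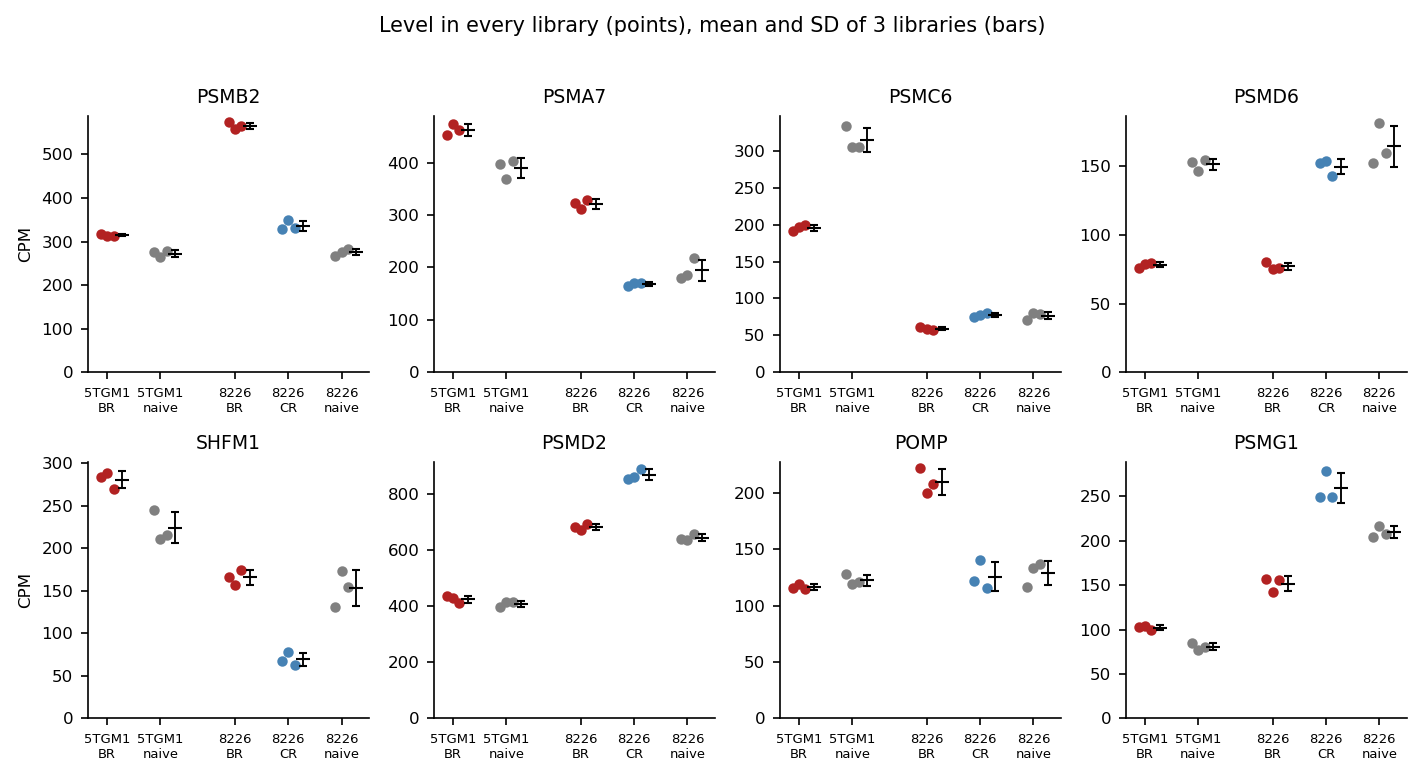
Level of 8 members in CPM (vertical axis, from 0) in each library of the 5 groups, with mean and SD of 3 libraries beside the points; red marks BR, blue CR and grey naive cells. PSMD6 falls to between 74.9 and 80.0 CPM in the BR groups of both lines, and SHFM1 to between 62.9 and 77.8 CPM in 8226 CR.

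The lid removes ubiquitin chains before degradation, and its subunit PSMD6 had the largest fall in both bortezomib-resistant lines. It had 76.2, 79.1 and 79.6 CPM in 5TGM1 BR and 153, 146 and 154 CPM in naive 5TGM1. In 8226 it had 80.0, 74.9 and 75.9 CPM in BR, 152, 153 and 143 CPM in CR and 152, 181 and 159 CPM in naive cells. Both BR groups lay apart from every other library of their line, 1.93-fold lower than naive cells in 5TGM1 and 2.13-fold lower in 8226. The log2 fold changes were -0.95 ± 0.041 in 5TGM1 BR (adjusted p = 5.22e-12, edgeR) and -1.09 ± 0.065 in 8226 BR (adjusted p = 3.31e-10). Their difference, 8226 minus 5TGM1, was -0.16 ± 0.082 and not called (adjusted p = 0.0862, interval -0.33 to 0.013). It was called without 8226 naive replicate 1 or 3, and with library size alone it had the other sign, 0.041. In CR the change was -0.14 ± 0.063 (adjusted p = 0.0658, interval -0.27 to -0.0011); it became a called fall under DESeq2, under its size factors and without naive replicate 1 or 3.

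SHFM1, a small lid subunit that also binds BRCA2, had the largest fall in 8226 CR. Its level was 67.0, 77.8 and 62.9 CPM in CR, 166, 157 and 175 CPM in BR and 131, 173 and 155 CPM in naive 8226. CR libraries lay apart from all others, and BR libraries overlapped naive ones. The log2 fold change was -1.14 ± 0.093 in CR against naive cells (adjusted p = 2.58e-08, edgeR) and -1.26 ± 0.094 in CR against BR (adjusted p = 6.08e-09). In BR against naive cells it was 0.12 and not called (interval -0.077 to 0.31), but called higher with library size alone (0.31) and without naive replicate 2. In 5TGM1 it rose by 0.32 ± 0.052 on the log2 scale, with 284, 288 and 269 CPM in BR and 245, 211 and 216 CPM in naive cells, which did not overlap.

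Among the other lid genes, PSMD7, which pairs with the deubiquitinase subunit PSMD14, had the largest fall in CR against BR after SHFM1. It had 234, 239 and 237 CPM in CR, 444, 411 and 411 CPM in BR and 281, 309 and 278 CPM in naive cells. CR lay below and BR above all naive libraries, and CR against BR gave -0.83 ± 0.055 (adjusted p = 1.42e-09, edgeR). In 5TGM1 it rose by 0.22, with 232, 237 and 235 CPM in BR and 204, 199.6 and 201 CPM in naive cells.
PSMD13, a scaffold subunit of the lid, followed the same order, with 107, 109 and 121 CPM in CR, 169.8, 174 and 182 CPM in BR and 142, 165 and 153 CPM in naive 8226. Its change was -0.45 ± 0.064 in CR (adjusted p = 1.33e-05) and 0.19 ± 0.064 in BR, a call lost without naive replicate 1, and 0.27 in 5TGM1 BR, with 206, 211 and 199 CPM in BR and 168, 166 and 176 CPM in naive cells. PSMD11, another scaffold subunit, rose in 8226 BR, with 281, 275 and 266 CPM in BR, 188, 189.6 and 199.6 CPM in CR and 187, 181 and 185 CPM in naive cells (0.57 ± 0.048). In 5TGM1 it was not called, at 114, 116 and 116 CPM in BR and 119, 120.3 and 120.00 CPM in naive cells, with an interval of -0.14 to 0.027. PSMD14, the lid's metalloprotease, was the member called in none of the 3 resistant lines: its changes were -0.088 in 5TGM1 BR (interval -0.17 to -0.0024), -0.046 in 8226 BR (-0.17 to 0.080) and -0.075 in CR (-0.20 to 0.051). DESeq2 called its fall in 5TGM1 BR, and with library size alone its value in 8226 BR had the other sign, 0.14, and was called higher. Of the rest, PSMD8 was called lower in CR (-0.45), PSMD3 higher in 8226 BR (0.25) and PSMD12 lower there (-0.29), a call lost with library size alone.

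The core's assembly factors divided. POMP, the proteasome maturation protein, rose in 8226 BR. It had 222, 199.5 and 208 CPM in BR, 122, 140.00 and 116 CPM in CR and 117, 133 and 137 CPM in naive cells. BR libraries lay above all others, with a change of 0.70 ± 0.076 (adjusted p = 4.68e-07, edgeR), while in CR it was -0.036 with an interval of -0.20 to 0.13. In 5TGM1 POMP had 116, 119.5 and 114 CPM in BR and 128, 119 and 121 CPM in naive cells and was not called (-0.073, interval -0.16 to 0.018). The 4 PSMG chaperones, which pair alpha subunits into rings, were all called lower in 8226 BR, by log2 changes of -0.47 (PSMG1), -0.43 (PSMG2), -0.26 (PSMG3) and -0.37 (PSMG4). The calls of PSMG3 and PSMG4 were lost with library size alone.
PSMG1 had 157, 142 and 156 CPM in 8226 BR, 249.8, 279 and 249 CPM in CR and 204, 217 and 208 CPM in naive cells. BR lay below and CR above every naive library, and CR against BR gave 0.77 ± 0.059 (adjusted p = 9.08e-09). In 5TGM1 it rose by 0.34 ± 0.045, with 103, 104 and 99.1 CPM in BR and 84.5, 76.5 and 80.5 CPM in naive cells. PSMG4, the partner of PSMG3, likewise rose in 5TGM1 BR, where it had 71.9, 74.8 and 70.1 CPM, against 58.4, 50.5 and 52.6 CPM in naive cells (0.43 ± 0.052, adjusted p = 1.91e-06). In 8226 it was the lowest of the named genes, with 24.1, 22.4 and 25.8 CPM in BR, 26.2, 31.4 and 25.7 CPM in CR and 27.9, 29.5 and 36.0 CPM in naive cells; BR lay below all naive libraries and CR overlapped them.

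Of the cap's assembly factors, PSMD5 fell in both resistant 8226 lines and rose in 5TGM1 BR. It had 55.0, 56.1 and 52.3 CPM in 8226 BR, 67.4, 69.1 and 69.3 CPM in CR and 87.7, 82.2 and 81.0 CPM in naive cells, with no overlap between groups. Changes were -0.62 ± 0.053 in BR (adjusted p = 3.20e-08, edgeR) and -0.29 ± 0.052 in CR (adjusted p = 0.000160). In 5TGM1 the levels were 74.6, 78.6 and 78.2 CPM in BR and 63.9, 66.4 and 68.5 CPM in naive cells (0.22 ± 0.043), again apart. The other cap chaperones, PSMD9 and PSMD10, were called higher in 8226 BR by 0.28 and 0.35 and in neither of the other resistant lines.

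Among regulators, PSME4, the PA200 activator that binds the core in place of the cap, fell in 5TGM1 BR. It had 229, 216 and 221 CPM in BR and 262, 294 and 272 CPM in naive 5TGM1, without overlap (-0.32 ± 0.046, adjusted p = 1.52e-05, edgeR). In 8226 it had 263, 263 and 246 CPM in BR, 266, 255 and 256 CPM in CR and 289.8, 288 and 259.8 CPM in naive cells, which overlapped and were not called; DESeq2 or its size factors called both falls. PSME3, the nuclear PA28 gamma activator, fell by 0.24 in 5TGM1 BR and by 0.17 in 8226 BR on the log2 scale, the second with the sign change under library size alone given above. The cap's deubiquitinases differed in 8226 BR: USP14 was called higher (0.41) and UCHL5 lower (-0.42), and neither was called in 5TGM1 BR. PSMF1, the inhibitor PI31, was called higher in both resistant 8226 lines, by 0.30 in BR and 0.29 in CR.

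Levels between genes were compared in 8226 as CPM per kilobase of the principal GENCODE 29 transcript. Structural beta genes had the highest median of any role, 349 in BR, 268 in CR and 289 in naive cells, and the alpha ring had medians of 202, 122 and 135. Base non-ATPases had medians of 157, 178 and 136, lid genes 88.1, 58.0 and 115 and ATPases 106, 77.5 and 76.5 in the same 3 groups. The gene at the lid median in naive cells was PSMD6, which fell in BR. Gene by gene, 6 of 9 lid genes had a positive log2 fold change in BR against naive cells and 3 a negative one, with a median of 0.12. Cap assembly factors were the lowest role, at 15.9 in BR, 19.9 in CR and 24.3 in naive cells. PSMB4 ranked first or second of 43 in all groups, at 536 in BR, 473 in CR and 362 in naive cells. PSMC1 and PSMD9 were among the lowest 3 in each group. PSME3 ranked 1 to 3 by this length and 16 to 23 by the length of merged exons, so its level per length depends on the transcript chosen. SHFM1 ranked 17 to 31 by the principal transcript and 38 to 42 by merged exons, and the lid median in naive cells was 72.7 with merged exons.

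Since PSMD6, SHFM1 and PSMB2 had the largest changes in the human lines, the 5 tested genes on either side of each in RefSeq order were set beside it; these 3 were chosen after their values were seen. The same was done for all 15 members called at 1.5-fold or more in any comparison within 8226. Against naive cells, most neighbours had the member's sign for 7 of the 15 in BR and for 8 in CR, and most had the other sign for 5 in BR and for 6 in CR. In CR against BR, most had the member's sign for 9 and the other sign for 3. PSMC1, for example, rose in BR (0.68) while 7 of its 10 neighbours had negative values. Around PSMD6 on chromosome 3, 7 of 10 neighbours were called lower in 8226 BR and 2 higher, where 41.6% and 38.2% of all genes were. ATXN7 and THOC7, which follow it on one side, changed by -1.43 and -1.94 on the log2 scale in BR, while in CR THOC7 was not called (-0.071) and ATXN7 was higher (0.44). THOC7, a subunit of an mRNA export complex, had 32.3, 33.4 and 31.7 CPM in BR, 119, 121 and 115 CPM in CR and 119, 132 and 122 CPM in naive 8226. Farther out, MAGI1, SLC25A26 and KBTBD8 were lower in BR by log2 changes of -0.99, -1.69 and -2.28, and LRIG1 between them was higher (1.34).
In 5TGM1 BR the mouse genes of the same symbols also fell for THOC7 (-0.91, adjusted p = 1.08e-10, edgeR) and ATXN7 (-0.97, adjusted p = 5.41e-11). THOC7 had 41.3, 43.5 and 47.2 CPM in 5TGM1 BR and 84.3, 79.6 and 83.3 CPM in naive 5TGM1, and the groups did not overlap. SLC25A26 (-0.065) and KBTBD8 (-0.078) were not called there. Mouse gene order was not used here.

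Around SHFM1 on chromosome 7, 8 of 10 neighbours were called lower in 8226 CR and 2 higher, where 36.7% and 35.0% of all genes were. The next gene, ACN9, had 0, 2 and 0 reads in CR, 382, 320 and 337 reads in BR and 1572, 1521 and 1523 reads in naive cells. On the other side SLC25A13 and DYNC1I1 were lower in CR by log2 changes of -0.57 and -0.97, and ASNS, the asparagine synthetase gene beyond ACN9, by -1.38. In BR, where SHFM1 was not called, SLC25A13 and ASNS were also lower (-0.52 and -1.29) and DYNC1I1 was higher (0.92).
Around PSMB2 on chromosome 1, 8 of 10 neighbours were called higher in BR and 10 of 10 in CR, where 38.2% and 35.0% of all genes were. Nearest to it, NCDN and C1orf216 changed by 0.94 and 0.85 in BR and by 0.22 and 0.61 in CR. ZMYM1, the fifth on one side, went the other way in BR.

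**Figure D4:**
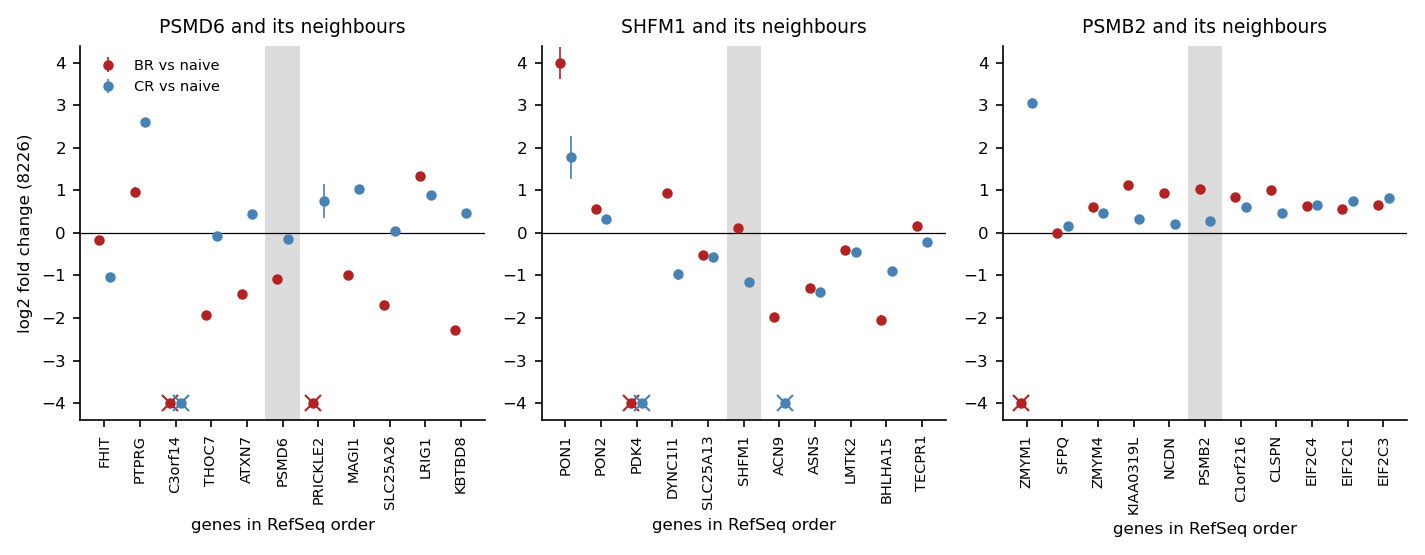
Log2 fold change with its SE (vertical axis) of PSMD6, SHFM1 and PSMB2 (grey band) and of the 5 tested genes on each side in RefSeq order, in 8226 BR and CR against naive cells; crosses at the edge mark values beyond 4 in size. Most PSMD6 neighbours lie below 0 in BR, most SHFM1 neighbours below 0 in CR and all PSMB2 neighbours above 0 in CR.

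Between the lines, the bortezomib-resistance changes of many members differed in size or direction. The test of the difference, 8226 minus 5TGM1, called 20 members higher (46.5%) and 10 lower (23.3%), against 36.4% and 39.2% of 8814 genes with the same symbol in both species. The median difference was 0.076 over members (0.032 to 0.11 with 1 library left out at a time) and -0.019 over all genes. With library size alone these were 0.28 and 0.18. Then 26 members were called higher and 7 lower, against 4196 and 2645 of the 8814 genes. PSMB2 (0.81 ± 0.060, adjusted p = 1.85e-09), POMP (0.76 ± 0.085, adjusted p = 3.93e-07) and PSMD11 (0.61 ± 0.059, adjusted p = 5.94e-08, edgeR) had the higher change in 8226. PSMD5 (-0.85 ± 0.072, adjusted p = 1.06e-08), PSMG1 (-0.82 ± 0.073, adjusted p = 2.13e-08) and PSMG4 (-0.81 ± 0.12, adjusted p = 8.73e-06) fell in 8226 and rose in 5TGM1.
Of the 43, 31 had the same sign in both lines, with Pearson's r = 0.43 and Spearman's rho = 0.20 across genes, which are not independent replicates. Without PSMD6 r was 0.23. Over the 8945 genes tested in both species r was 0.042, and 4733 had the same sign.

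**Figure D5:**
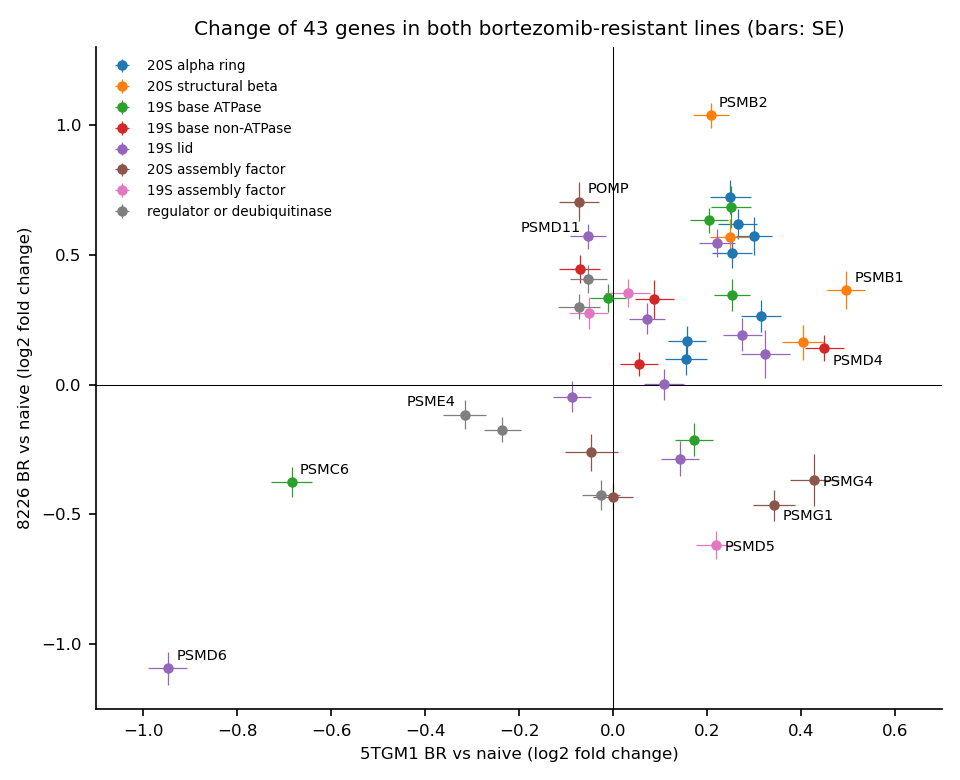
Log2 fold change in 8226 BR (vertical axis) against that in 5TGM1 BR (horizontal axis), each against naive cells, for the 43 genes with SE bars, coloured by role. PSMD6 lies at the lower left (-0.95 in 5TGM1 and -1.09 in 8226), and PSMG1, PSMG4 and PSMD5 lie right of 0 and below it.

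Across the 3 resistant lines, each against its naive cells, 4 members were called higher in every line (PSMB2, PSMB4, PSMC4 and PSMD4; 9.30%), against 6.32% of the 8945 genes of equal symbol tested in both species. Under 5 alternatives PSMD4 lost its 8226 BR call, as given above. Another 8 (18.6%), among them 4 alpha ring genes, were higher in both BR lines and lower in CR, against 3.53% of all genes. With library size alone those 4 alpha ring genes lost their CR calls. Of the 8, PSMB3 lost its 8226 BR call under DESeq2 or its size factors, and PSMD13 without naive replicate 1. The 3 (6.98%) called lower in both BR lines and not called in CR were PSMC6, PSMD6 and PSME3, against 4.38% of all genes. No member was called lower in all 3, against 7.07%. Under DESeq2, or under its size factors, PSMD6 and PSME4 were called lower in all 3.

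Other genes of the pathway, which are not among the 43, are set out as background. Of all genes tested, 34.0% were called higher and 33.2% lower in 5TGM1 BR. In 8226 these shares were 38.2% and 41.6% in BR and 35.0% and 36.7% in CR. Of the catalytic core genes PSMB5, PSMB6 and PSMB7, 1 was called higher and 2 lower in 5TGM1 BR, with PSMB5, the main target of both drugs, at -0.85 (adjusted p = 7.20e-11, edgeR). All 3 were called higher in 8226 BR, PSMB5 by 0.83, and 2 lower in CR, PSMB7 at -0.63. The 5 immunoproteasome and PA28 genes were all called lower in 5TGM1 BR, with changes of -0.96 to -1.56, while 2 rose and 2 fell in each resistant 8226 line. Of 9 genes listed for the NRF1 pathway, 2 were called higher and 4 lower in 5TGM1 BR, 3 and 4 in 8226 BR and 4 and 3 in CR. That list also held NFE2L2, the gene of NRF2. NFE2L1, the gene of NRF1, averaged 450 CPM in 5TGM1 BR and 381 CPM in naive 5TGM1. In 8226 it averaged 242 CPM in BR, 190 CPM in CR and 211 CPM in naive cells. Its part in the changes of the 43 genes was not tested. Of 6 ubiquitin and E1 genes, 2 were called higher and 2 lower in 5TGM1 BR, 2 and 2 in 8226 BR and 0 and 2 in CR. Among ubiquitin receptors and VCP adaptors, 6 of 14 were called higher and 2 lower in 5TGM1 BR, 6 and 4 of 13 in 8226 BR and 3 and 5 of 13 in CR.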

How the data were processed

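RNA sequencing counts were analysed in 15 libraries, 6 of mouse and 9 of human cells. The authors deposited gene counts in the layout of STAR's gene table, with 3 strand columns; the column that held the gene reads was used. Per the submitters' processing notes STAR was used, and the builds named are mm10, hg19, GRCm38 and GRCh37; the STAR version and the build of each file are not given in the sources used here. Summary lines that name no gene were left out of library sizes and tests (8.95% to 16.3% of reads mapped to several places, 1.04% to 6.04% unmapped, 10.4% to 16.6% in no gene and 0.602% to 1.14% ambiguous). Reads shared with near-identical copies went with those mapped to several places, so levels of genes with such copies are uncertain.

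Counts were fitted per species with edgeR 4.0.16 in R 4.3.3 (limma 3.58.1): filterByExpr, TMM scaling, and quasi-likelihood F tests, adjusted over all genes tested by the Benjamini-Hochberg method. A call is an adjusted p below 0.05, and a larger change a call of at least 1.5-fold. The difference between lines was an interaction term over 12 libraries, on genes of equal symbol, which is no orthology table. The fit was tested on simulated counts. Fold changes are shown as log2 with SE and 95% intervals. Members named with every library are the 3 largest called rises and falls per comparison; the members and lists were chosen with earlier results of these data known. Sequences came from RefSeq (GRCh38.p14) and transcript lengths from GENCODE 29. Alternatives were other scalings (for shares of reads, TMM-scaled totals, chosen after seeing the data), no filter, DESeq2 1.42.0, counts without regard to strand, fits of 2 groups, a replicate block and each library left out. Gene reads per library were 31709636 to 72288680, and counting intervals would cover counting error only. Replicates were compared, and none was a duplicate of another (chi-square per degree of freedom 3.92 to 25.4).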

Additional observations from a re-analysis of the deposited data

Results flagged for a closer look

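The change with bortezomib resistance differed between the lines, 8226 minus 5TGM1, by the interaction test of edgeR with Benjamini-Hochberg adjustment, for 6 members whose values were the largest in either direction. On the log2 scale the difference was 0.81 for PSMB2, 0.76 for POMP and 0.61 for PSMD11, each with the higher change in 8226. It was -0.85 for PSMD5, -0.82 for PSMG1 and -0.81 for PSMG4, each lower in 8226 BR and higher in 5TGM1 BR than in naive cells. Over all 43 members, 20 were called higher (46.5%) and 10 lower (23.3%), against 36.4% and 39.2% of 8814 genes. By at least 1.5-fold, 3 members were called higher and 3 lower, against 1797 and 2150 of the 8814 genes. What sets the lines apart was not tested, since species, line and drug dose differ together.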

How the results depend on the processing

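Of the counts and medians over members and the shares of reads, 497 values under alternatives moved by less than the limits set and 13 by more. The members' median in CR changed sign with library size alone, from -0.062 to 0.00059. CR calls were then 12 higher and 11 lower, against 5462 and 4589 of all genes. With library size alone, 8226 BR against naive cells gave 6 members called lower, 13 higher and 1 lower by at least 1.5-fold, and a median of 0.44; the median was -0.39 for CR against BR and 0.28 for the difference between lines. Leaving the 100 most abundant genes out of the total gave shares of 1.26% in 5TGM1 BR and 1.15% in naive 5TGM1, and 1.28% in 8226 BR, 1.04% in CR and 1.01% in naive cells. Scaling totals by TMM factors, added after the data were seen, gave 1.03% in 8226 BR and 0.877% in naive 8226. The cause was not tested. Among the members named with every library, 24 values lost and 27 gained a call. Calls of other members, such as PSMA1, PSMA3, PSMA6 and PSMB3, were also lost and are not in that count. Leaving out 1 library at a time gave 23 to 25 members higher and 4 to 5 lower in 5TGM1 BR (median 0.12 to 0.18), 22 to 27 and 11 to 12 in 8226 BR (0.19 to 0.27), 12 to 17 lower in CR (median -0.10 to -0.025) and 25 to 26 lower in CR against BR, and a median of 0.032 to 0.11 for the difference between lines. Deviations of equally numbered libraries correlated at -0.30 to 0.39, the highest for replicate 3 of naive 8226 and 8226 BR. With 3 libraries per group, this cannot settle whether replicate numbers pair the samples. With the replicate block, 23 members were called higher and 4 lower in 5TGM1 BR, where PSMD8 lost its call; 26 and 11 in 8226 BR, 9 and 15 in CR, and 9 and 26 in CR against BR were as without it. The lowest count of any member in a library was 766 reads (PSMG4 in 8226 BR).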
